A study of Homo sapiens with 24 samples.

Results

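The genes described here are those that make sterols and fatty acids, that control their synthesis through the SREBP transcription factors, and that export sterols from the cell. They were taken as a list of 34 named genes out of the 59609 gene symbols of the count table. The list was drawn up by role, with earlier results of these data known, and no threshold on a measured value defines it. Of the 34, 7 act early in the mevalonate pathway, 11 belong to the sterol branch, 6 control SREBP or carry sterols, 7 make or modify fatty acids, and 3 are sterol exporters or other targets of the oxysterol receptor LXR. The study asked how an inhibitor of the cell cycle kinases CDK4 and CDK6 and a degrader of the oestrogen receptor (ER) change transcription in breast cancer cells. MDA-MB-231 is an ER-negative mesenchymal breast cancer line, and MDA-MB-453 is another ER-negative breast cancer line. Both lines carry the genotype label wild-type. Treatment lasted 5 days and consisted of the vehicle DMSO, 500 nM abemaciclib, 5 nM fulvestrant, or these drugs together (the combination), which gives 8 groups of 3 libraries. MDA-MB-231 was grown in RPMI-1640 and MDA-MB-453 in DMEM, so that line and medium cannot be told apart. By the study's methods the 3 libraries of a group are independent biological replicates of an experiment done once, so the p-values measure the spread within that experiment.

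Cholesterol is built from acetyl-CoA, which is turned through HMG-CoA and mevalonate into isoprenoid units, then squalene, and then the sterol ring that later enzymes trim to cholesterol. When membrane sterol is low, SCAP escorts the SREBP precursors to the Golgi for activation, and when sterol is plentiful the INSIG proteins hold the complex back. SREBP-2, from SREBF2, mainly drives sterol genes, SREBP-1, from SREBF1, mainly drives fatty acid genes, and LXR, which senses oxysterols, drives exporters and SREBF1 itself. SREBPs bind sterol response elements and commonly act together with NF-Y, a factor that binds the CCAAT box.

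Library totals ran from 2873558 to 4158762 counts over the 24 libraries. Levels are given as CPM, the count per 1000000 counts of a library total after TMM scaling (trimmed mean of M values). Where a gene had no count in a group, a floor of 3 counts was used, which equalled 0.249 to 0.299 CPM. The lines carried their markers: VIM, CD44 and AXL had 0 counts in the DMSO libraries of MDA-MB-453, and ERBB3 had 0 in those of MDA-MB-231. The leukocyte marker PTPRC had 0 counts and 1 count under DMSO in MDA-MB-231 and MDA-MB-453, and of the fibroblast markers DCN had 0 in both, while COL1A1 averaged 5.56 CPM (MDA-MB-231) and 40.5 CPM (MDA-MB-453), whose part in the results was not tested. Mitochondrial genes took 8.83% ± 0.213 of the counts under DMSO (SD, n = 3) and 12.2% ± 1.05 with abemaciclib in MDA-MB-231, while MDA-MB-453 had 15.2% ± 0.650 and 23.8% ± 1.91. The proliferation marker MKI67 read 506 ± 24.9 CPM under DMSO and 185 ± 14.4 CPM with abemaciclib in MDA-MB-231, against 284 ± 18.5 CPM and 1.77 ± 0.780 CPM for MDA-MB-453. With the mitochondrial genes left out of the totals, 6 members were called higher with abemaciclib and 4 lower in MDA-MB-231, and for MDA-MB-453 these counts were 5 and 16. Against the counts below, MDA-MB-453 lost the call of FADS2 and gained that of SCAP, with an adjusted p of 0.0401. The part of the shift in MKI67 in the results was not tested.

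Upstream stretches of 5 members are shown because they hold the letters of the CCAAT box or of the sterol response element. Binding of a factor to them was not measured. They come from RefSeq promoter windows on GRCh38.p14, which run from 250 bases before to 50 bases after a start site, and 29 of the 34 members matched 39 such windows. FDPS, EBP, HMGCS1 and INSIG1 are the 4 members with the lowest adjusted p among those with a CCAAT box that fell by at least 0.5 on the log2 scale with abemaciclib in MDA-MB-453. SREBF2 is the member with a sterol response element of the searched form. FDPS, EBP, HMGCS1 and INSIG1 were chosen after their values were seen. Capitals mark the CCAAT box, read as ATTGG on the other strand, and in SREBF2 also the sterol response element. Each stretch is written 5′ to 3′ on the strand of its gene and ends before the first annotated base of that gene.
FDPS, chr1:155308646-155308747, plus strand: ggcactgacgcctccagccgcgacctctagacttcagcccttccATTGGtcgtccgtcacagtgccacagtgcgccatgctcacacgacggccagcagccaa
EBP, chrX:48521588-48521787, plus strand: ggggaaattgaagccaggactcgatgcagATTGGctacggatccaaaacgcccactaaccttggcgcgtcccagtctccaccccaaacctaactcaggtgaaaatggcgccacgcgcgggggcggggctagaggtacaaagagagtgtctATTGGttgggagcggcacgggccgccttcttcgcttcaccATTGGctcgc
HMGCS1, chr5:43313513-43313632, minus strand: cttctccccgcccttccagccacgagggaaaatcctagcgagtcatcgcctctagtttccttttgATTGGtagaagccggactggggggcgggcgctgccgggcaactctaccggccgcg
INSIG1, chr7:155297658-155297775, plus strand: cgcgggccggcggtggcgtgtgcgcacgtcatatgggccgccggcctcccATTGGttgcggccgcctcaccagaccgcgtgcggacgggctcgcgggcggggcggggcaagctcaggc
SREBF2, chr22:41832885-41833084, plus strand: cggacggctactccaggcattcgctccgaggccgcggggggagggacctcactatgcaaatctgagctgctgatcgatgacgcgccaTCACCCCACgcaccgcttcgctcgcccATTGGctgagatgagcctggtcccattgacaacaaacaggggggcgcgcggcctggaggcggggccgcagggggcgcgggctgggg

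Both strands were searched for exact matches. The CCAAT box stood in 25 of the 39 windows of the members, or 64.1%, and in 34.614% of all 35116 promoter windows. The sterol response element, searched as TCACNCCAC, stood in 1 member window, that of SREBF2, or 2.56%, and in 1.128% of all windows. The E-box CACGTG stood in 6 member windows, or 15.4%, and in 7.256% of all windows. Of the members with a window, 13 of the 15 that fell with abemaciclib in MDA-MB-453 held a CCAAT box. A box was also held by 3 of the 3 that rose, 5 of the 9 not called and 0 of the 2 not tested. The share over all genes was not counted by call, so these counts are not set against it. The counts by call are of genes with a match in any of their windows, unlike the shares of windows before them. All are matches of letters, not measured sites.

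Levels under DMSO differed between the lines for nearly all members. By edgeR's quasi-likelihood test with Benjamini-Hochberg adjustment over all genes, 25 of the 32 members tested were higher in MDA-MB-453 than in MDA-MB-231, where 34.2% of all genes were higher, and 5 were lower, where 35.6% of all genes were lower. The median log2 difference of the members was 1.61. Higher were 6 of the 7 early mevalonate genes, 9 of the 10 tested genes of the sterol branch, 5 of the 6 genes of SREBP control and sterol transport, and 3 of the 7 fatty acid genes. The plot of DMSO levels by line shows the libraries of the lines apart for most genes.

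**Figure D1:**
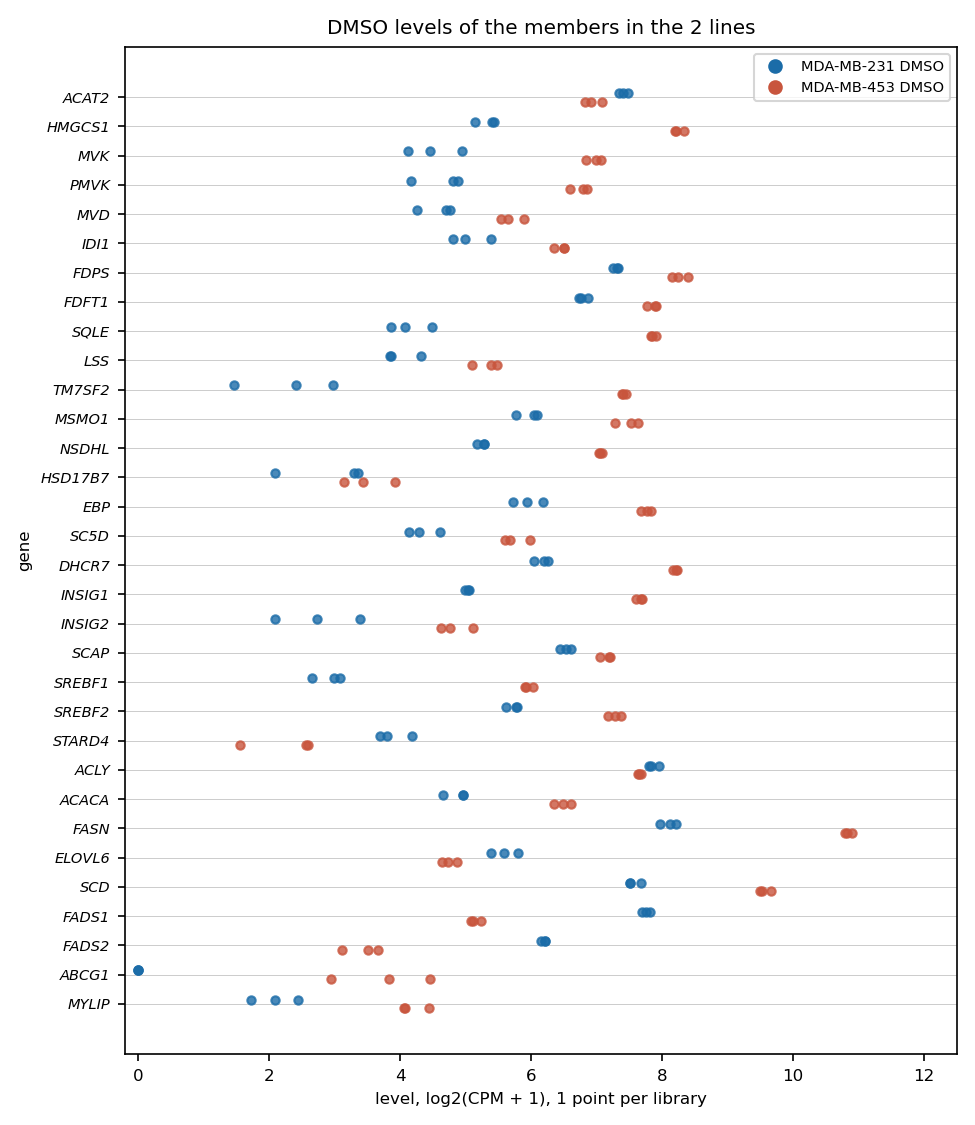
Levels under DMSO as log2(CPM + 1) on the x axis, with 1 point for each of the 3 libraries of MDA-MB-231 (blue) and MDA-MB-453 (red), for the members with counts. Most sterol genes lay higher in MDA-MB-453, while FADS1, FADS2, ELOVL6, STARD4 and ACAT2 lay lower.

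TM7SF2, a sterol reductase of the late pathway, read 6.86, 4.33 and 1.77 CPM in MDA-MB-231 and 173, 168 and 166 CPM in MDA-MB-453. Its log2 difference was 5.28 ± 0.22 (SE), with an adjusted p of 1.16e-30. SQLE, the epoxidase that acts on squalene, read 21.5, 13.6 and 15.9 CPM against 226, 238 and 229 CPM, 13.6-fold higher in MDA-MB-453. SREBF1, which encodes SREBP-1, read 7.46, 6.93 and 5.31 CPM against 59.3, 59.5 and 64.6 CPM, 9.27-fold higher. HMGCS1, which makes HMG-CoA, was 7.68-fold higher, INSIG1 6.35-fold, and FASN, the fatty acid synthase, 6.65-fold with 251, 278 and 296 CPM against 1913, 1768 and 1802 CPM. In each of these genes the libraries of the lines did not overlap.

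The 5 members that were lower in MDA-MB-453 were 3 fatty acid genes, a sterol carrier and a thiolase. FADS1 and FADS2, the desaturases that make polyunsaturated fatty acids, read 205, 225 and 215 CPM and 70.4, 73.3 and 73.5 CPM in MDA-MB-231, against 36.8, 33.7 and 33.0 CPM and 7.71, 11.7 and 10.4 CPM. They were 6.23-fold and 7.24-fold lower in MDA-MB-453, with adjusted p of 4.37e-29 and 2.44e-19. STARD4, a carrier of cholesterol between membranes, was 3.52-fold lower, ELOVL6, which lengthens saturated and monounsaturated fatty acids, 1.84-fold, and ACAT2, the thiolase that joins acetyl-CoA units, 1.39-fold. TCP1, a gene on the other strand that shares exon bases with ACAT2, had a log2 difference of -0.82 ± 0.09. Reads of ACAT2 and TCP1 cannot be told apart. ACLY, which supplies acetyl-CoA from citrate, and HSD17B7, a late sterol reductase, were not called, with log2 differences of -0.21 ± 0.10 and 0.57 ± 0.37. ABCG1, a sterol exporter, had 0 counts in the DMSO libraries of MDA-MB-231 and 141 in those of MDA-MB-453, at least 46.0-fold higher when the group at 0 is set to 3 counts.

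Abemaciclib lowered most of the cholesterol synthesis genes in MDA-MB-453, while in MDA-MB-231 members changed both ways, at shares near those of all genes. In MDA-MB-453, 17 of the 32 members tested were lower, where 19.4% of all genes were lower, and 4 were higher, where 16.6% of all genes were higher. In MDA-MB-231, 4 of the 31 members tested were lower and 6 were higher, where 16.9% of all genes were lower and 16.9% higher. Over the members the log2 fold change had its median at -0.41 for MDA-MB-453 and at 0.09 for MDA-MB-231, and the medians over all genes lay near 0. The line difference, tested in 1 model of all 24 libraries, subtracts the effect of abemaciclib seen in MDA-MB-231 from the effect seen in MDA-MB-453. It was below 0 for 14 of the 32 members tested, where 13.1% of all genes were called below 0, and above 0 for 2, where 7.74% were. Its median was -0.54 over the members and -0.073 over all genes. The plot of abemaciclib effects sets the lines side by side.

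**Figure D2:**
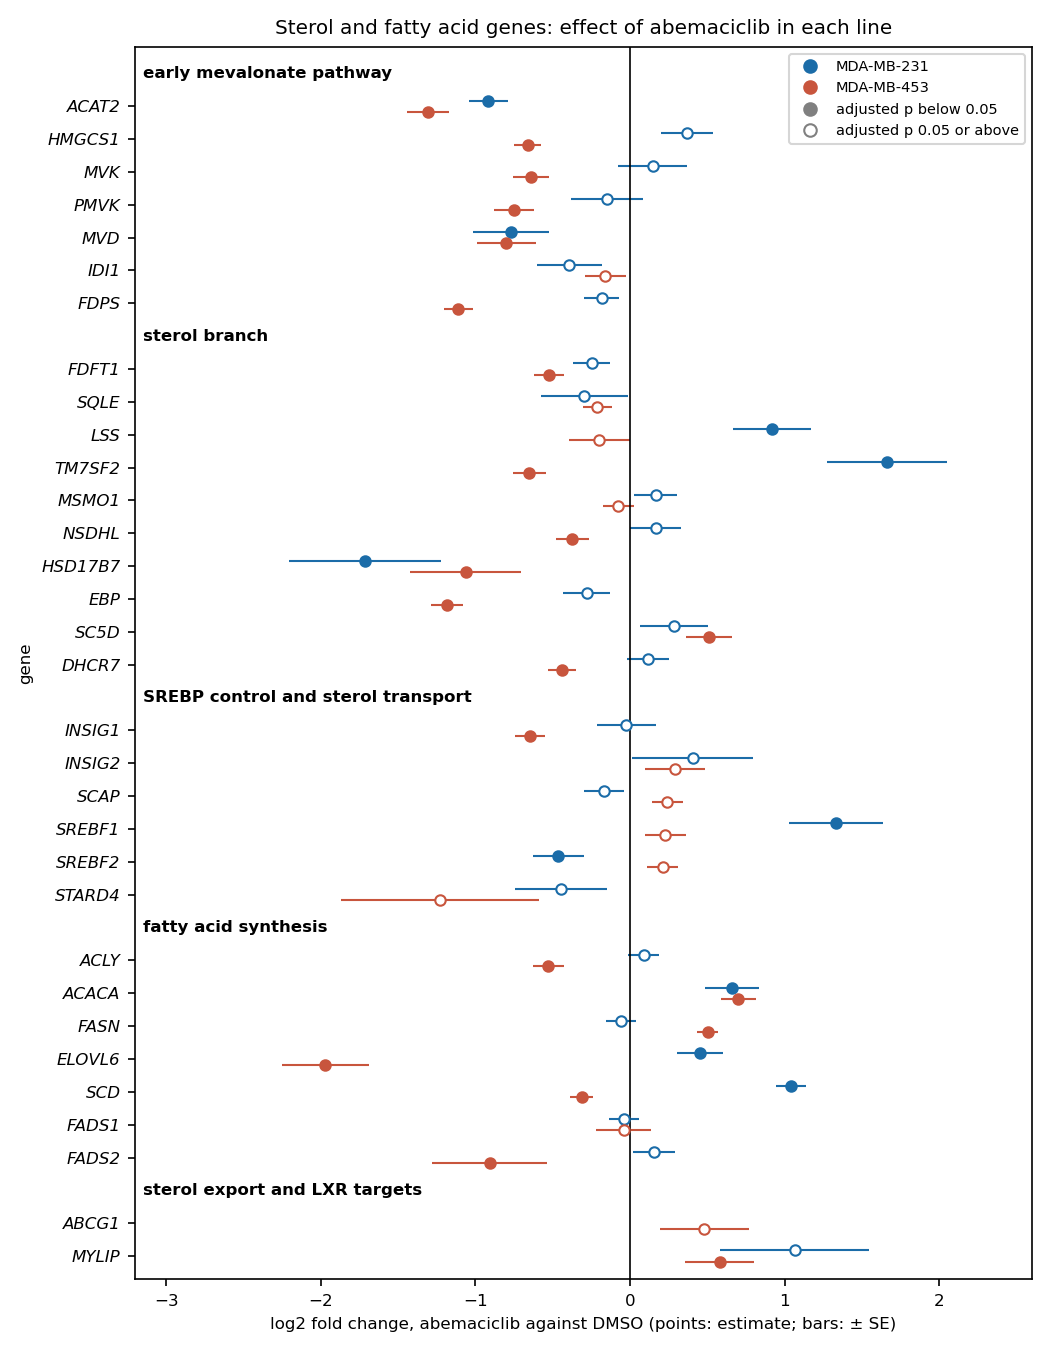
Log2 fold change of abemaciclib against DMSO on the x axis, with bars of ± 1 SE, for each tested member in MDA-MB-231 (blue) and MDA-MB-453 (red), grouped by role. Filled points passed an adjusted p of 0.05. The red points of the mevalonate and sterol genes lie mostly left of 0, and TM7SF2, ELOVL6 and SCD lie on opposite sides of 0 in the lines.

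In the early mevalonate pathway, 6 of the 7 genes fell with abemaciclib in MDA-MB-453, where 19.4% of all genes fell. In MDA-MB-231, 2 of the 7 fell, where 16.9% of all genes did. FDPS (chr1:155308748-155320666 on GRCh38, plus strand, GENCODE version 44), which makes farnesyl diphosphate, read 301, 282 and 336 CPM under DMSO and 149.6, 138 and 139.9 CPM under abemaciclib in MDA-MB-453. It fell 2.16-fold, with a log2 fold change of -1.11 ± 0.09 and an adjusted p of 3.54e-15. In MDA-MB-231 it read 159, 158 and 152 CPM against 132, 162 and 119 CPM, where the groups overlapped, with a log2 fold change of -0.18 ± 0.11 and an adjusted p of 0.208. The difference between the lines was -0.92 ± 0.15, with an adjusted p of 1.72e-06. Under abemaciclib the level in MDA-MB-453 lay within the range read in MDA-MB-231.

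HMGCS1 (chr5:43287470-43313512, minus strand) read 323, 295 and 292 CPM under DMSO and 205, 178 and 195 CPM under abemaciclib in MDA-MB-453, a fall of 1.58-fold with an adjusted p of 9.23e-09. The libraries of MDA-MB-231 read 41.5, 42.4 and 34.5 CPM and then 48.3, 47.3 and 56.9 CPM. The latter groups did not overlap, but the log2 fold change of 0.37 ± 0.17 had an adjusted p of 0.0794. Between the lines the effect differed by -1.02 ± 0.17, with an adjusted p of 2.34e-06.

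MVK and PMVK, successive kinases of the mevalonate pathway, fell in MDA-MB-453. MVK read 114, 126 and 133 CPM and then 82.7, 81.9 and 75.0 CPM, a fall of 1.56-fold with an adjusted p of 1.14e-05. PMVK read 95.8, 109.6 and 115 CPM and then 67.2, 59.3 and 64.6 CPM, a fall of 1.68-fold with an adjusted p of 2.91e-06. Neither gene had overlapping groups there, while in MDA-MB-231 both overlapped. In that line MVK read 16.4, 29.7 and 21.0 CPM against 24.6, 26.8 and 23.0 CPM, and PMVK read 17.0, 27.1 and 28.6 CPM against 24.9, 25.3 and 15.5 CPM. The difference between the lines passed the test for MVK, at -0.78 ± 0.23 with an adjusted p of 0.0111, and not for PMVK, at -0.59 ± 0.26 with an adjusted p of 0.102.

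ACAT2 and MVD fell in both lines. MVD, the decarboxylase that yields isopentenyl diphosphate, read 49.2, 58.1 and 45.5 CPM and then 24.1, 28.0 and 36.5 CPM in MDA-MB-453, a fall of 1.74-fold with an adjusted p of 0.000612. MDA-MB-231 had 18.2, 25.1 and 26.3 CPM and then 12.9, 17.3 and 10.7 CPM, a fall of 1.71-fold with an adjusted p of 0.0117. The latter call was lost without DMSO replicate 3 or without abemaciclib replicate 3, with adjusted p up to 0.0760. IDI1, the isomerase that follows MVD, was not called in either line, with log2 fold changes of -0.39 ± 0.21 for MDA-MB-231 cells and -0.16 ± 0.13 for MDA-MB-453 cells.

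ACAT2 (chr6:159762045-159779112, plus strand) read, in MDA-MB-231, 169, 160.4 and 177 CPM under DMSO and 80.7, 109.8 and 77.7 CPM under abemaciclib. In MDA-MB-453 it read 134, 119.6 and 112 CPM and then 63.7, 39.5 and 44.2 CPM. Its log2 fold changes were -0.92 ± 0.13 and -1.31 ± 0.14, with adjusted p of 4.04e-08 and 5.99e-12, and no groups overlapped. ACAT2 shares 454 bases of the last 1000 bases of its exons with TCP1, a chaperonin subunit gene on the other strand that had 22713 counts over the 24 libraries against 8998 for ACAT2. On the log2 scale TCP1 fell by 0.99 ± 0.09 with abemaciclib in MDA-MB-231 cells and by 0.93 ± 0.10 in MDA-MB-453 cells. As the strand setting of the counting is not given in the sources used here, reads of these genes cannot be told apart.

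In the sterol branch, 6 of the 10 tested genes fell with abemaciclib in MDA-MB-453 and 1 rose, where 19.4% of all genes fell and 16.6% rose. In MDA-MB-231, 1 of the 10 fell and 2 rose, near the 16.9% of all genes called each way. EBP (chrX:48521799-48528716, plus strand), the sterol isomerase, read 218, 228 and 204 CPM under DMSO and 93.1, 96.7 and 97.1 CPM under abemaciclib in MDA-MB-453. It fell 2.28-fold, with a log2 fold change of -1.19 ± 0.10 and an adjusted p of 1.46e-14. In MDA-MB-231 it read 71.3, 60.0 and 51.9 CPM and then 57.6, 43.1 and 49.9 CPM, with overlapping groups and an adjusted p of 0.157. The line difference was -0.90 ± 0.18, with an adjusted p of 8.09e-05. EBP shares 131 of its last 1000 exon bases with an unnamed gene on the same strand. On the other strand, unnamed noncoding genes share 869 such bases with HMGCS1, 448 with LSS and 156 with ACLY, and RUSC1-AS1, with 28 counts in all, shares 384 with FDPS. Whether the counting used strand is not given in the sources used here, so reads of such pairs cannot be told apart.

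TM7SF2 (chr11:65111845-65116384, plus strand) moved in opposite directions. The libraries of MDA-MB-453 read 173, 168 and 166 CPM and then 104, 107 and 113 CPM, a fall of 1.57-fold with an adjusted p of 1.39e-06. The libraries of MDA-MB-231 read 6.86, 4.33 and 1.77 CPM and then 17.0, 14.3 and 9.88 CPM, a rise of 3.17-fold with an adjusted p of 0.000594. The groups did not overlap in either line, and the difference between the lines was -2.30 ± 0.31, with an adjusted p of 4.07e-08. Its level in MDA-MB-231 stayed below 20 CPM in every library.

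LSS, the cyclase that forms the sterol ring, read 13.4, 13.6 and 18.9 CPM and then 37.4, 33.0 and 16.3 CPM in MDA-MB-231. It rose 1.89-fold with an adjusted p of 0.00326, but abemaciclib replicate 3 lay within the DMSO range, and without abemaciclib replicate 1 the log2 fold change was 0.68 with an adjusted p of 0.0615. MDA-MB-453 had 33.2, 43.7 and 40.8 CPM and then 45.5, 26.8 and 30.1 CPM, with an adjusted p of 0.463. MDA-MB-453 minus MDA-MB-231 gave -1.11 ± 0.35 with an adjusted p of 0.0176, a call that was lost without abemaciclib replicate 1 or replicate 2 of MDA-MB-231.

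HSD17B7 fell in both lines at low levels. It read 3.28, 9.23 and 8.85 CPM and then 1.40, 2.08 and 2.94 CPM in MDA-MB-231, a fall of 3.28-fold with an adjusted p of 0.00483. In MDA-MB-453 it read 9.79, 14.2 and 7.82 CPM and then 4.01, 7.53 and 3.68 CPM, a fall of 2.09-fold with an adjusted p of 0.0155. In MDA-MB-453 the call ended when DMSO replicate 2 or abemaciclib replicate 1 or 3 was left out, with adjusted p up to 0.135. In MDA-MB-231 the 3 abemaciclib libraries held 23 counts together. With the combination in that line, HSD17B7 read 5.60 ± 1.33 CPM (SD, n = 3) and was not called against DMSO.

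FDFT1, the squalene synthase, read 235, 217 and 240.0 CPM and then 184, 147 and 151 CPM in MDA-MB-453, a fall of 1.44-fold with an adjusted p of 1.46e-05. MDA-MB-231 had 107, 115 and 105 CPM and then 96.9, 76.5 and 101 CPM, with groups apart but an adjusted p of 0.110. The difference between the lines was -0.27 ± 0.16, with an adjusted p of 0.251. SC5D, the sterol desaturase, was the 1 gene of the branch that rose in MDA-MB-453, from 50.4, 62.6 and 47.5 CPM to 90.7, 69.9 and 68.6 CPM, 1.42-fold with an adjusted p of 0.00406. Without abemaciclib replicate 1 its adjusted p was 0.0639. In MDA-MB-231 SC5D read 18.5, 23.4 and 16.5 CPM and then 26.5, 21.7 and 22.7 CPM, with an adjusted p of 0.346.

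DHCR7, the last reductase of the pathway, and NSDHL, a sterol dehydrogenase, fell by less. DHCR7 read 298, 297 and 285 CPM and then 210.1, 217 and 224 CPM in MDA-MB-453, a fall of 1.36-fold with an adjusted p of 4.88e-05. NSDHL read 134, 131 and 131 CPM and then 111, 94.6 and 101 CPM, a fall of 1.29-fold with an adjusted p of 0.00481. In neither gene did these groups overlap. In MDA-MB-231 DHCR7 read 75.5, 64.9 and 72.6 CPM and then 82.7, 75.9 and 71.8 CPM, and NSDHL read 37.9, 38.1 and 35.1 CPM and then 43.0, 42.5 and 39.0 CPM, and neither was called. The differences between the lines were -0.55 ± 0.15 for DHCR7 and -0.53 ± 0.18 for NSDHL, with adjusted p of 0.00493 and 0.0314. That of NSDHL was lost without the filter on low counts, without abemaciclib replicate 2 of MDA-MB-231 and without DMSO replicate 2 of MDA-MB-453. SQLE and MSMO1, an oxidase of sterol methyl groups, were not called in either line, with log2 fold changes of -0.29 ± 0.28 and 0.17 ± 0.14 for MDA-MB-231, against -0.21 ± 0.09 and -0.08 ± 0.10 for MDA-MB-453. CYP51A1, the sterol demethylase, had 3 counts in all 24 libraries and was not tested. It shares 68.2% of its exon bases, and 378 of the last 1000, with an unnamed gene on the same strand. Whether reads that could belong to either gene were left uncounted was not tested.

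Summed over the 18 mevalonate and sterol genes, the DMSO libraries of MDA-MB-453 held 2621 to 2677 CPM and the abemaciclib libraries 1721 to 1915 CPM. In MDA-MB-231 the sums were 865 to 877 CPM and 720 to 806 CPM. There the 7 early mevalonate genes held 462 to 471 CPM under DMSO and 327 to 411 CPM under abemaciclib. The 11 genes of the sterol branch held 394 to 409 CPM and 393 to 447 CPM. ACAT2, whose reads cannot be told apart from those of TCP1, is 1 of the early genes and had means of 169 and 89.4 CPM. The sum of the 18 genes in each abemaciclib library of MDA-MB-453 stayed above that in every library of MDA-MB-231, as the plot of summed levels shows.

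**Figure D3:**
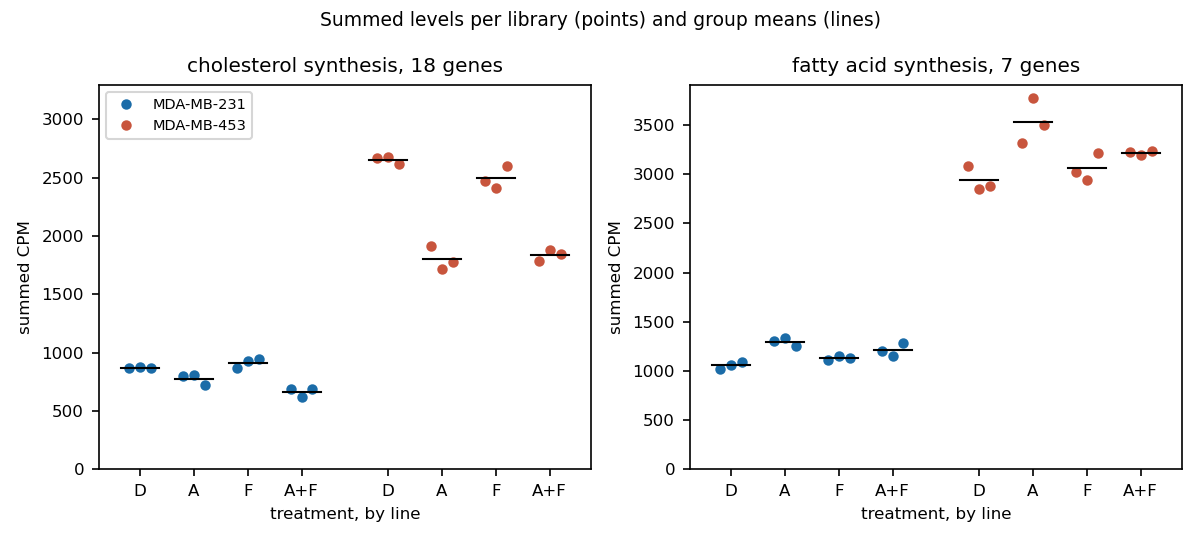
Summed CPM on the y axis of the 18 cholesterol synthesis genes (left) and the 7 fatty acid genes (right) in each library, by treatment (D, DMSO; A, abemaciclib; F, fulvestrant; A+F, combination) for MDA-MB-231 (blue) and MDA-MB-453 (red), with lines at group means. The cholesterol sum of MDA-MB-453 went from 2621 to 2677 CPM under DMSO to 1721 to 1915 CPM under abemaciclib, and the fatty acid sum, most of it FASN, from 2856 to 3085 CPM to 3323 to 3777 CPM.

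Among the genes of SREBP control and sterol transport, 1 of 6 fell with abemaciclib in MDA-MB-453, where 19.4% of all genes fell. In MDA-MB-231, 1 rose and 1 fell, where 16.9% of all genes were called each way. These counts lay near the shares of all genes. INSIG1 (chr7:155297776-155310235, plus strand), itself a target of SREBP, read 193, 206 and 205 CPM and then 135, 132 and 119.9 CPM in MDA-MB-453. It fell 1.56-fold, with an adjusted p of 2.15e-07, and its groups did not overlap. In MDA-MB-231 it read 32.2, 32.0 and 30.7 CPM and then 27.9, 29.5 and 35.8 CPM, with overlapping groups and an adjusted p of 0.944. Between the lines the effect differed by -0.62 ± 0.19, with an adjusted p of 0.0152.

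The genes of the SREBPs themselves differed between the lines in their response. SREBF1 (chr17:17810399-17837002, minus strand) read 7.46, 6.93 and 5.31 CPM and then 22.1, 17.6 and 10.1 CPM in MDA-MB-231, a rise of 2.52-fold with an adjusted p of 0.000467 and no overlap. The libraries of MDA-MB-453 read 59.3, 59.5 and 64.6 CPM and then 64.5, 73.5 and 78.0 CPM, with groups that just overlapped and an adjusted p of 0.187. The line difference was -1.09 ± 0.30, with an adjusted p of 0.00438. SREBF1 shares 556 of its last 1000 exon bases with RAI1, a chromatin regulator gene on the other strand, which had a log2 fold change of -0.38 ± 0.20 for MDA-MB-231 and of 0.70 ± 0.15 for MDA-MB-453.

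SREBF2 (chr22:41833105-41907306, plus strand) read 53.7, 48.2 and 54.3 CPM and then 42.5, 32.1 and 38.2 CPM in MDA-MB-231, a fall of 1.38-fold with an adjusted p of 0.0234. Leaving out DMSO replicate 1 or 3 or abemaciclib replicate 2 ended that call, with adjusted p up to 0.131. MDA-MB-453 had 165, 143 and 155 CPM and then 187, 189 and 162 CPM, with overlapping groups and an adjusted p of 0.0871. MDA-MB-453 minus MDA-MB-231 gave 0.68 ± 0.18, with an adjusted p of 0.00267. INSIG2, SCAP and STARD4 were not called in either line. Their log2 fold changes in MDA-MB-231 were 0.41 ± 0.39, -0.17 ± 0.13 and -0.45 ± 0.30, and in MDA-MB-453 they were 0.29 ± 0.19, 0.24 ± 0.10 and -1.23 ± 0.64. The level of STARD4 in MDA-MB-453 was 5.04, 1.95 and 4.92 CPM under DMSO.

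In fatty acid synthesis, 3 of the 7 genes rose with abemaciclib in MDA-MB-231, where 16.9% of all genes rose. In MDA-MB-453, 4 of the 7 fell and 2 rose, where 19.4% of all genes fell and 16.6% rose. SCD (chr10:100347233-100364826, plus strand), the desaturase that makes monounsaturated fatty acids, read 205, 181 and 181 CPM and then 377, 397 and 388 CPM in MDA-MB-231. It rose 2.05-fold, with a log2 fold change of 1.04 ± 0.10 and an adjusted p of 1.09e-12. In MDA-MB-453 it read 811, 733 and 720.4 CPM and then 647, 579 and 602 CPM, a fall of 1.24-fold with an adjusted p of 0.000841. The groups were apart in both lines, and the difference between the lines was -1.34 ± 0.13, with an adjusted p of 3.33e-13.

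ELOVL6 (chr4:110045846-110199199, minus strand) also moved in opposite directions. The libraries of MDA-MB-453 read 24.0, 28.1 and 25.5 CPM and then 6.69, 4.22 and 9.04 CPM, a fall of 3.92-fold with an adjusted p of 6.52e-08. The libraries of MDA-MB-231 read 40.9, 47.3 and 54.6 CPM and then 69.3, 66.4 and 59.8 CPM, a rise of 1.37-fold with an adjusted p of 0.0136. The difference between the lines was -2.42 ± 0.29, with an adjusted p of 7.83e-10. Leaving out replicate 1 of either DMSO or abemaciclib ended the call in MDA-MB-231, with adjusted p up to 0.0990, whereas the fall and the difference between the lines passed the test in every alternative run.

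ACACA, the carboxylase that makes malonyl-CoA, rose in both lines. It read 30.1, 30.3 and 24.2 CPM and then 52.8, 40.8 and 40.0 CPM in MDA-MB-231, 1.58-fold with an adjusted p of 0.00226. MDA-MB-453 had 88.4, 81.0 and 97.0 CPM and then 149.6, 136 and 149 CPM, 1.63-fold with an adjusted p of 6.99e-07. Neither line had overlapping groups. Between the lines the effect differed by 0.05 ± 0.20, with an adjusted p of 0.970; a p of this size does not show that the responses were alike.

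FASN (chr17:82078338-82098294, minus strand) read 1913, 1768 and 1802 CPM and then 2333, 2886 and 2568 CPM in MDA-MB-453, a rise of 1.42-fold with an adjusted p of 3.36e-08 and no overlap. MDA-MB-231 had 251, 278 and 296 CPM and then 263, 258 and 269 CPM, with overlapping groups and an adjusted p of 0.683. The line difference was 0.57 ± 0.11, with an adjusted p of 8.26e-05. ACLY, the enzyme before ACACA, fell in MDA-MB-453 from 204, 199.7 and 197 CPM to 146, 135 and 137 CPM, 1.44-fold with an adjusted p of 1.71e-05. In MDA-MB-231 ACLY read 221, 227 and 247 CPM and then 256, 266 and 216 CPM, with overlapping groups, and its difference between the lines was -0.61 ± 0.14, with an adjusted p of 0.00109.

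FADS2 read 7.71, 11.7 and 10.4 CPM and then 8.03, 2.71 and 5.02 CPM in MDA-MB-453, with overlapping groups. Its log2 fold change of -0.91 ± 0.37 had an adjusted p of 0.0489, and the call was lost under 10 of the 14 alternatives, among them those that left out replicate 2 or 3 of DMSO or of abemaciclib. In MDA-MB-231 it read 70.4, 73.3 and 73.5 CPM and then 80.2, 89.0 and 72.3 CPM. MDA-MB-453 minus MDA-MB-231 gave -1.05 ± 0.32 with an adjusted p of 0.0143, a call that ended when replicate 2 of either group of MDA-MB-453 was left out. FADS1 was not called in either line, with log2 fold changes of -0.04 ± 0.10 and -0.04 ± 0.18. In MDA-MB-231 the 7 fatty acid genes summed to 1023 to 1091 CPM under DMSO and to 1253 to 1333 CPM under abemaciclib. The same sums in MDA-MB-453 were 2856 to 3085 CPM and 3323 to 3777 CPM. Without FASN, the other 6 genes there summed to 1083 to 1172 CPM under DMSO and 891 to 990 CPM under abemaciclib, while in MDA-MB-231 they summed to 772 to 795 CPM and 985 to 1075 CPM.

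**Figure D4:**
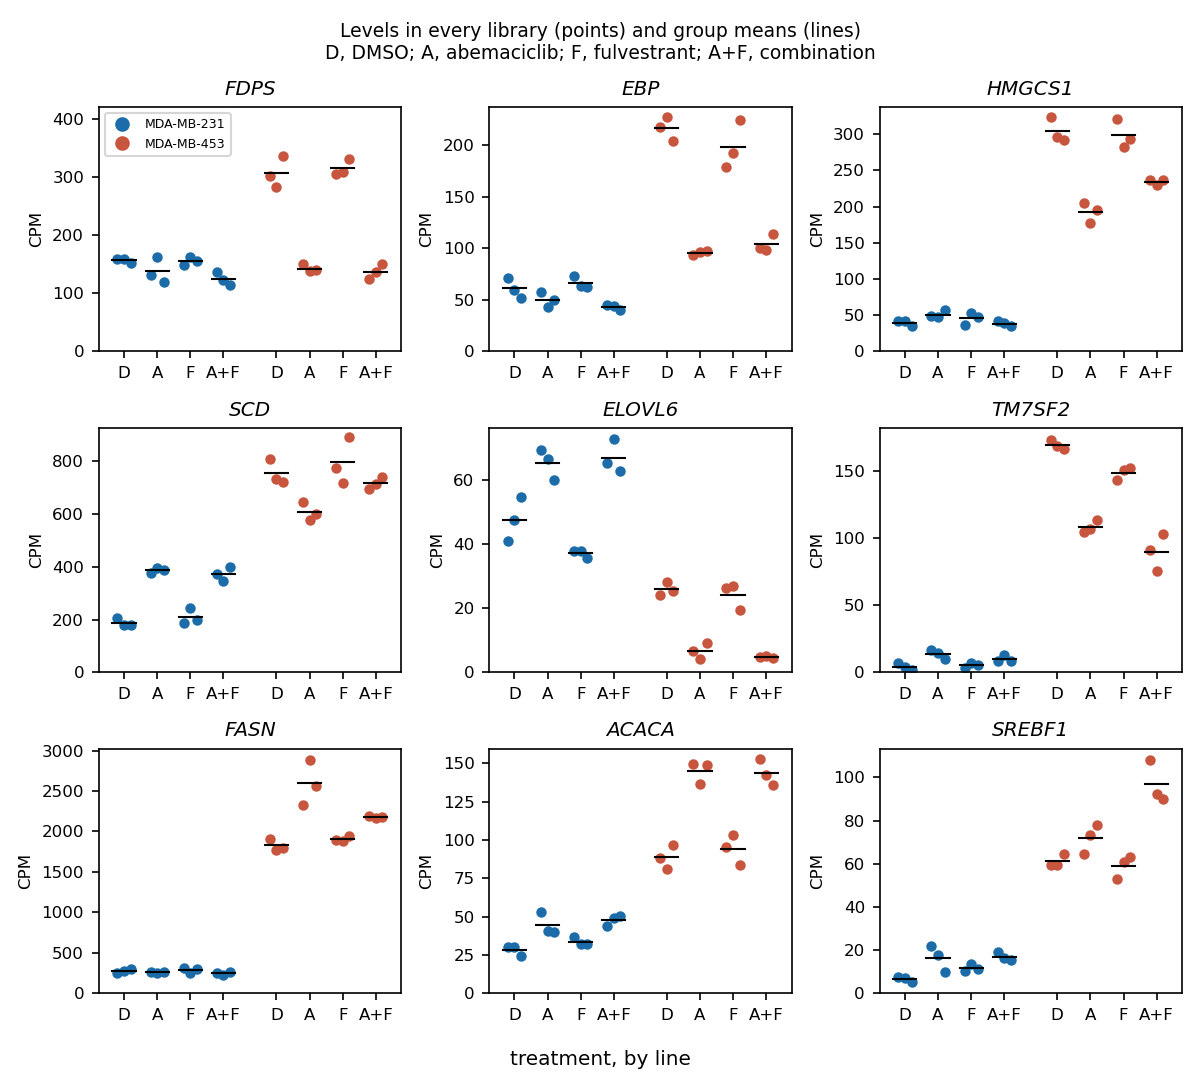
Levels in CPM on the y axis of 9 members in each library, by treatment (D, DMSO; A, abemaciclib; F, fulvestrant; A+F, combination) for MDA-MB-231 (blue) and MDA-MB-453 (red), with lines at group means. FDPS, EBP and HMGCS1 fell with abemaciclib in MDA-MB-453, SCD, ELOVL6 and TM7SF2 moved in opposite directions in the lines, and ACACA rose in both.

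The sterol exporters and LXR targets were low in MDA-MB-231. ABCA1, which exports cholesterol to lipoprotein particles, had 0 counts in the DMSO and fulvestrant libraries of MDA-MB-231 and 28 counts under abemaciclib, at 2.24, 2.98 and 2.67 CPM. Against a floor of 3 counts over the DMSO group, it was at least 8.91-fold higher with abemaciclib and, with 19 counts, at least 5.36-fold higher with the combination. It had 0 counts in all libraries of MDA-MB-453 and did not pass the filter on low counts in either line. Without that filter, ABCA1 was called in MDA-MB-231 with abemaciclib, with an adjusted p of 0.00152. In MDA-MB-231, ABCG1 had 3 counts under abemaciclib and was not tested. In MDA-MB-453 it read 21.1, 6.68 and 13.3 CPM and then 15.5, 19.6 and 22.4 CPM, with an adjusted p of 0.204.

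MYLIP, a ubiquitin ligase that marks lipoprotein receptors for breakdown, read 15.7, 15.9 and 20.8 CPM and then 24.4, 28.6 and 25.8 CPM in MDA-MB-453, a rise of 1.49-fold with an adjusted p of 0.0355. This call was lost under 6 of the 14 alternatives, 4 of which left out DMSO replicate 1, DMSO replicate 2, abemaciclib replicate 2 or abemaciclib replicate 3. The libraries of MDA-MB-231 read 3.28, 2.31 and 4.43 CPM and then 6.15, 11.0 and 4.00 CPM, with overlapping groups and an adjusted p of 0.0812. The difference between the lines was -0.47 ± 0.50, with an adjusted p of 0.587.

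Some members that were not called passed the test when a library was left out. In MDA-MB-231, FDPS was lower with an adjusted p of 0.0423 without abemaciclib replicate 2, and MYLIP was higher with 0.0365 without abemaciclib replicate 3. In MDA-MB-453, SREBF2 was higher with 0.0466 without abemaciclib replicate 3, ABCG1 with 0.0221 without DMSO replicate 1, and SCAP with 0.0493 without abemaciclib replicate 1. SCAP was also called there by DESeq2, with an adjusted p of 0.0324. For the line difference, PMVK passed without DMSO replicate 3 or abemaciclib replicate 3 of MDA-MB-231, and FDFT1 without abemaciclib replicate 1 of MDA-MB-453. ACAT2 passed without abemaciclib replicate 3 of MDA-MB-231 or abemaciclib replicate 1 of MDA-MB-453, with adjusted p of 0.0447 and 0.00797. SCAP passed without abemaciclib replicate 2 of MDA-MB-231, with 0.0170, and by DESeq2, with 0.0385.

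Counted over both lines, 3 members fell in both (ACAT2, MVD and HSD17B7), 1 rose in both (ACACA), and 3 rose in MDA-MB-231 and fell in MDA-MB-453 (TM7SF2, ELOVL6 and SCD). The share of all genes with such pairs of calls was not counted, so these counts are not set against it. The calls of MVD and ELOVL6 in MDA-MB-231 and of HSD17B7 in MDA-MB-453 were lost in some alternatives. Reads of ACAT2 and TCP1 cannot be told apart. The heat map by library shows the members in single libraries. In bulk RNA, fewer cells that express a gene and less of its RNA per cell cannot be told apart.

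**Figure D5:**
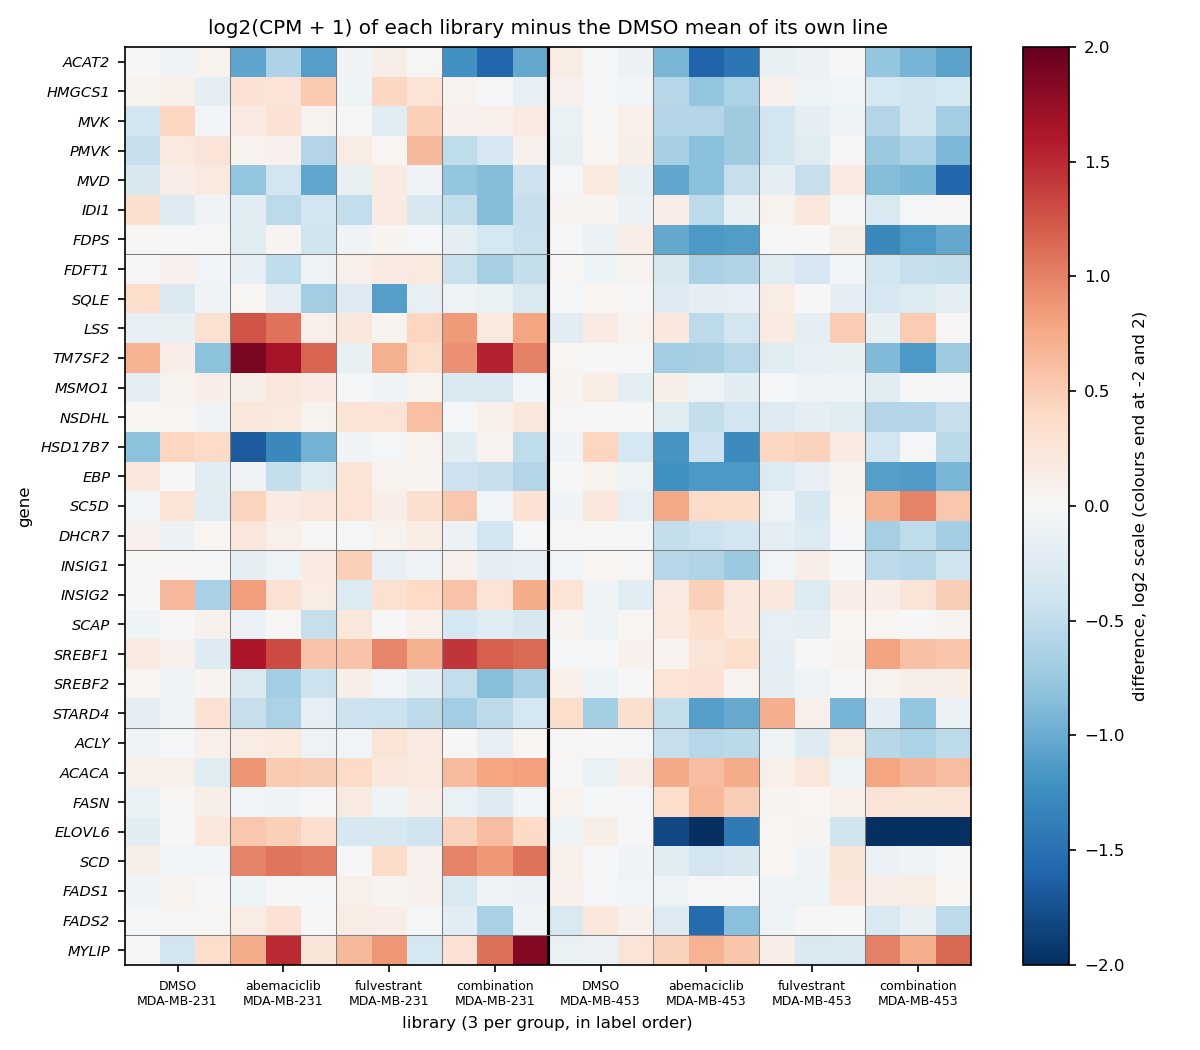
Difference of log2(CPM + 1) in each of the 24 libraries (columns) from the DMSO mean of its own line, for 31 members (each a horizontal band, in order of role), with red above and blue below the mean and colours ending at -2 and 2. CYP51A1, ABCA1 and ABCG1 are left out for low counts. Blue dominates the upper bands in the abemaciclib and combination libraries of MDA-MB-453, and the fulvestrant libraries are mostly pale.

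No member passed the test with fulvestrant alone. In MDA-MB-231, 0 of 31 members passed edgeR's test, where 0% of all genes were called, and 3 had an unadjusted p under 0.05, as did 785 of the 11314 genes tested. In MDA-MB-453, 0 of 32 passed, where 1.34% of all genes were called, and 1 had an unadjusted p under 0.05, as did 1520 of the 11080 genes tested. DESeq2 also called 0 members in each line. Fitted log2 fold changes ran from -0.51 for STARD4 to 0.83 for SREBF1 in MDA-MB-231, and from -0.22 for NSDHL to 0.35 for HSD17B7 in MDA-MB-453. SREBF1 read 11.7 ± 1.81 CPM (SD, n = 3) under fulvestrant in MDA-MB-231, with an adjusted p of 0.562.

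Under the combination, 15 of 32 members were lower than under DMSO in MDA-MB-453, where 20.2% of all genes were lower, and 6 were higher, where 17.6% were. In MDA-MB-231, 7 of 31 were lower, where 18.4% of all genes were lower, and 7 were higher, where 17.1% were. These comparisons use the same DMSO libraries as those of abemaciclib alone, so the values are set side by side without a test of their likeness. In MDA-MB-453, FDPS read 137 ± 12.8 CPM with the combination, EBP 104 ± 8.60 CPM, HMGCS1 234 ± 4.50 CPM, ELOVL6 4.77 ± 0.311 CPM and TM7SF2 89.9 ± 13.7 CPM. Their log2 fold changes against DMSO were -1.15, -1.04, -0.36, -2.42 and -0.90, and those with abemaciclib alone were -1.11, -1.19, -0.66, -1.97 and -0.65.

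In MDA-MB-453, SREBF1, ABCG1 and SQLE passed the test with the combination and not with abemaciclib alone, a contrast of calls that is no test of a difference. SREBF1 read 96.8 ± 9.81 CPM and was 1.59-fold higher than under DMSO, with an adjusted p of 3.22e-05. RAI1, which overlaps it on the other strand, rose by 0.87 ± 0.15 on the log2 scale, with an adjusted p of 2.78e-06, and reads of these genes cannot be told apart. ABCG1, at 23.8 ± 6.29 CPM, was 1.75-fold higher with an adjusted p of 0.0213. MYLIP, at 34.9 ± 5.25 CPM, was 2.02-fold higher with an adjusted p of 0.000153. SQLE was 1.19-fold lower, with an adjusted p of 0.0264. The calls of ABCG1 and SQLE were each lost without DMSO replicate 2 or 3 or combination replicate 1 or 2. SCD, FADS2 and HSD17B7 were not called under the combination, with log2 fold changes of -0.06 ± 0.08, -0.37 ± 0.36 and -0.37 ± 0.34.

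In MDA-MB-231 the combination left SCD at 374 ± 27.4 CPM, 1.99-fold above DMSO with an adjusted p of 3.41e-12, SREBF1 at 17.0 ± 2.00 CPM, 2.58-fold above it, and ACACA at 48.0 ± 3.28 CPM, 1.71-fold above it. ACAT2 fell 2.40-fold, and TCP1 fell by 1.05 ± 0.09 on the log2 scale. FDFT1 was 1.45-fold lower with an adjusted p of 0.000415, EBP 1.41-fold with 0.00788, IDI1 1.55-fold with 0.0150, FDPS 1.25-fold with 0.0182, SREBF2 1.60-fold with 0.000870 and MVD 1.66-fold with 0.0150. LSS, TM7SF2, ELOVL6 and MYLIP were higher, by 0.65, 1.23, 0.49 and 1.40 on the log2 scale. Without DMSO replicate 1 of MDA-MB-231, 9 members passed in place of 14, and EBP, ELOVL6, FDPS, IDI1 and LSS were lost. Other libraries of MDA-MB-231 decided single calls. FDPS was lost without DMSO replicate 2 or combination replicate 2 or 3, IDI1 without combination replicate 2, and LSS without DMSO replicate 2 or combination replicate 1 or 3. The call of LSS was also lost with DESeq2 and with the replicate block, and over its 14 alternatives the adjusted p reached 0.157. MVD was lost without DMSO replicate 2 or 3 or combination replicate 1 or 2, MYLIP without DMSO replicate 2 or combination replicate 3, and TM7SF2 without DMSO replicate 3 or combination replicate 2.

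Few members differed between the combination and abemaciclib alone. In MDA-MB-231, 0 of 31 members differed between the combination and abemaciclib by edgeR's test and 0 by DESeq2's, where 0.0354% of all genes were higher and 0.0442% lower. An unadjusted p under 0.05 was found for 7 of the members and for 1143 of the 11314 genes tested. Of 32 members tested in MDA-MB-453, 2 were higher, where 1.32% of all genes were higher, and 1 was lower, where 1.2% were. HMGCS1 was 1.23-fold higher, SREBF1 1.36-fold higher and FASN 1.18-fold lower with the combination, with adjusted p of 0.0495, 0.0488 and 0.0496. All 3 calls were lost without any 1 of abemaciclib replicates 2 and 3 and combination replicates 1, 2 and 3, and that of SREBF1 also without abemaciclib replicate 1.

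The wider pathway was read from a list of 105 further genes of isoprenoid, sterol, oxysterol and fatty acid metabolism. With abemaciclib, MDA-MB-231 had 30 of the 93 tested higher and 7 lower, where 16.9% of all genes were called each way. MDA-MB-453 had 21 of the 88 tested higher and 18 lower, where 16.6% of all genes were higher and 19.4% lower, so the lower count lay near that of all genes. The medians were 0.24 and 0.10, where those of all genes lay near 0. In MDA-MB-231, 15 of the 39 tested genes of fatty acid synthesis and use rose, and 8 of the 22 of sterol uptake, storage and transport. These stand beside 30 of the 93 of the whole list. In MDA-MB-453, 5 of 15 genes of other isoprenoid and sterol synthesis were lower and 1 higher. The difference between the lines was below 0 for 28 of the 95 tested, where 13.1% of all genes were, and above 0 for 6, where 7.74% were.

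In MDA-MB-231, the called genes with the largest changes at 10 CPM or more were ABCA3, a transporter of phospholipids, and ACSS2, which makes acetyl-CoA from acetate. ABCA3 read 8.35, 7.21 and 5.90 CPM under DMSO and 28.8, 25.9 and 20.8 CPM under abemaciclib, 3.51-fold higher with an adjusted p of 4.09e-07. ACSS2 read 6.27, 4.33 and 5.31 CPM and then 13.1, 18.4 and 13.1 CPM, 2.80-fold higher with an adjusted p of 0.000698. Neither gene had overlapping groups. Under the combination the largest changes by the same rule were those of AACS, which makes acetoacetyl-CoA in the cytosol, 3.25-fold higher, and of ABCA3, 3.22-fold higher.

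In MDA-MB-453, they were COQ2, the prenyltransferase of ubiquinone synthesis, and LIPA, the lysosomal lipase that frees cholesterol from its esters. COQ2 read 32.3, 34.5 and 32.4 CPM and then 5.62, 11.4 and 11.7 CPM, 3.50-fold lower with an adjusted p of 1.89e-07. LIPA read 24.3, 22.0 and 20.0 CPM and then 8.03, 9.04 and 8.70 CPM, 2.58-fold lower with an adjusted p of 0.000164. With the combination, COQ2 was 3.57-fold and LIPA 2.96-fold lower. In MDA-MB-231, LIPA read 11.6, 12.4 and 11.8 CPM under DMSO and 35.8, 32.1 and 25.1 CPM under abemaciclib, values given here after they were seen.

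Between the combination and abemaciclib, TMEM97, a sterol-regulated membrane protein, was 1.56-fold lower in MDA-MB-453 with an adjusted p of 0.00150, from 81.4, 117 and 123 CPM to 64.9, 69.4 and 68.2 CPM. The other 2 called genes of the list, FADS3 and GPAM, had a lower mean level and were named after their values were seen. FADS3 had a mean of 0.513 CPM with abemaciclib and 3.88 CPM with the combination, and GPAM 4.32 and 12.1 CPM. In MDA-MB-231 no gene of the list was called by edgeR in that comparison, and 8 had an unadjusted p under 0.05, beside the 1143 of 11314 genes tested. For the difference between the lines, the called genes with the largest values at a mean of 10 CPM or more were APOC1 and ACSL4. APOC1, an apolipoprotein, was at -5.66 ± 1.42, and ACSL4, which activates polyunsaturated fatty acids, at -3.82 ± 0.57. APOC1 had at most 3.06 CPM in any of those libraries of MDA-MB-453, and ACSL4 at most 8.01 CPM, so the sizes of these values rest on few counts. Between the lines under DMSO, 42 of the 95 tested were higher in MDA-MB-453, where 34.2% of all genes were, and 26 lower, where 35.6% were. CAV1, the caveolin of cholesterol-rich membrane pits, had 2054 counts in MDA-MB-231, while MDA-MB-453 had 0, at least 699-fold lower, and ACSL5, an acyl-CoA synthetase, had 352 and 1.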

How the data were processed

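The 24 libraries were sequenced from the 3′ ends of transcripts. The authors aligned reads to hg38 with STAR, counted them per gene with featureCounts on a GENCODE annotation, and deposited raw counts without normalisation. Strand, multiple alignments and duplicates in the counting are not given in the sources used here. Reads copied by amplification are not separate molecules, so floors cover counting error only. A line without a gene name (1 in the table) held 0 counts.

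The deposited counts went into edgeR 4.0.16 under R 4.3.3: filterByExpr, scaling by the trimmed mean of M values, and robust quasi-likelihood F tests, 2-sided, in 1 fit for each line, and in a fit of all 24 libraries for the comparisons across lines. CPM come from the latter fit. The SE printed with a log2 value is its absolute size divided by the square root of its F statistic. Calls required an adjusted p under 0.05, by the method of Benjamini and Hochberg across every gene in the fit. With 3 libraries per group an exact permutation test cannot go below p = 0.1. The tests were run on simulated data first. Alternatives were DESeq2 1.42.0, its size factors, library totals, totals without mitochondrial genes, no filter, a mean of at least 5 CPM, only the groups compared, a replicate block, and leaving out each library. Replicate pairs differed by more than counting noise, so each library was counted once.

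Full values are given for members called with an absolute log2 fold change of at least 0.5 for abemaciclib in either line, or called for the difference between lines. Of the wider list, the 2 called genes of largest change at a mean of 10 CPM or more are named in each comparison. A rule to print promoters with a sterol response element in members that changed by 0.5 in MDA-MB-453 found none, and those shown were chosen afterwards. The members and lists were chosen with earlier results of these data known. Gene positions and shared exons are from GENCODE version 44 on GRCh38. The study's methods name an earlier GENCODE release for the counting, so the shared exons may differ from those of the annotation that was counted.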

Additional observations from a re-analysis of the deposited data

Results flagged for a closer look

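For 16 members the effect of abemaciclib differed between the lines by a test of the difference itself, with the value for MDA-MB-231 subtracted from the value for MDA-MB-453 in the model of all 24 libraries (edgeR, adjusted p below 0.05). It was -2.42 for ELOVL6, -2.30 for TM7SF2, -1.34 for SCD, -1.11 for LSS, -1.09 for SREBF1, -1.05 for FADS2, -1.02 for HMGCS1, -0.92 for FDPS, -0.90 for EBP, -0.78 for MVK, -0.62 for INSIG1, -0.61 for ACLY, -0.55 for DHCR7 and -0.53 for NSDHL on the log2 scale. It was 0.57 for FASN and 0.68 for SREBF2. Of all genes tested, 13.1% were called below 0 and 7.74% above 0. The calls of LSS, FADS2 and NSDHL were lost in some alternatives. The lines were grown in different media, so line and medium cannot be told apart.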

How the results depend on the processing

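Of 115 calls of members over all comparisons, 91 held under every alternative run, 24 were lost under at least 1, and 0 changed direction. The count of members called between the combination and abemaciclib in MDA-MB-453, 3 as reported, was 1 with DESeq2's size factors, 1 with no filter on low counts, 0 with the replicate block, and 0 to 4 when a library was left out. That for the combination against DMSO in MDA-MB-231, 14 as reported, was 9 to 12 when a library was left out, the lowest without DMSO replicate 1. The cause was not tested. Same-numbered libraries did not deviate together: their correlations ran from -0.033 to 0.058 in the within-line comparisons. Whether they were handled together is not given in the sources used here. The replicate block left the other counts within 1.5 times the reported ones. The median difference between the lines over all genes moved from -0.073 to -0.160 with library totals. At the depth of these libraries, members of a few CPM rest on few reads, and for STARD4 with abemaciclib in MDA-MB-453 a log2 fold change of -1.23 ± 0.64 did not pass.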
